A study of Mus musculus with 21 samples.

Results

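The 3 transforming growth factor beta (TGFb) ligand genes Tgfb1, Tgfb2 and Tgfb3, the receptor genes Tgfbr1, Tgfbr2, Tgfbr3, Eng and Acvrl1, and the latent ligand carrier gene Ltbp1 were followed across 21 RNA-seq libraries of cultured mouse mammary fibroblasts. They were chosen by gene symbol and make up 9 of the 45706 genes in the deposited table, each with 1 row. The libraries fall into 7 groups of 3. Cancer-associated fibroblasts (CAF, the line CAF1) came from an MMTV-PyMT mammary carcinoma, a mouse tumour in which the MMTV promoter drives the polyoma middle T antigen in mammary epithelium. Normal fibroblasts (NF, the line NF1) were from normal FVB/n mammary gland. CAF received siHsp90aa1, siHsp90ab1 or control siRNA, all with vehicle. NF received siHsp90aa1 with TGFb1, siHsp90ab1 with TGFb1, control siRNA with TGFb1, or control siRNA with vehicle. All groups were transfected with 100 nM siRNA (the 2 targeting reagents were pools) in medium with 10% serum, TGFb1 was given at 5 ng/mL for 43 h, and RNA was taken 48 h after transfection. Each kind of fibroblast is 1 numbered line, each target has 1 siRNA pool, and no NF knockdown with vehicle was among the groups. A difference between CAF and NF is therefore one between these 2 lines, and a knockdown effect in CAF is set against one in NF under a different treatment. Whether the 3 libraries of a group are separate cultures is not given in the sources used here, so each p-value measures the spread between these libraries, which may be technical.

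TGFb is secreted bound to its own propeptide, and LTBP proteins tie this latent complex to the extracellular matrix until integrins or proteases free the ligand. Active ligand binds the type II receptor TGFBR2, which recruits and phosphorylates the type I receptor TGFBR1, and TGFBR1 then phosphorylates SMAD2 and SMAD3. Betaglycan (TGFBR3) and endoglin (ENG) are co-receptors that present ligand, and ACVRL1 (ALK1) is an alternative type I receptor best known from endothelium. In fibroblasts the pathway drives matrix production and the contractile myofibroblast state, and TGFb1 is known to stimulate its own transcription. HSP90 is a chaperone of many kinases, and the cytosolic HSP90 alpha and HSP90 beta proteins are the products of Hsp90aa1 and Hsp90ab1.

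Knockdown of Hsp90aa1 was accompanied by lower Tgfbr1 transcript in both lines, to 40.2% of the control in NF with TGFb1 and to 49.4% in CAF, while Tgfbr2 stood at 200.5% and 193.8% of the control. Tgfb1 fell to 44.3% of its control in NF with TGFb1, and in CAF it stood at 73.6%, a difference that missed the threshold. Tgfbr3, which TGFb1 treatment lowered in NF, was higher with siHsp90aa1 in treated NF. Its rise in CAF was smaller and passed the threshold in 4 of 15 alternative fits. With siHsp90ab1, 1 of the 9 genes passed the threshold in CAF, beside 0.900% of all tested genes, and 0 in NF with TGFb1, beside 2.69%.

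The windows upstream of Tgfbr1, Tgfb1 and Tgfbr2 are shown because these genes changed most after Hsp90aa1 knockdown in NF among the members found in the sequence table. They are the 250 bases before the annotated start site from RefSeq on GRCm38.p6, 5′ to 3′ on the gene's strand. Capitals mark matches, on either strand, to the SMAD box (CAGAC), the GC box (GGGCGG) and the CCAAT box (CCAAT).
Tgfbr1, chr4:47352972-47353221, plus strand, first of its annotated starts: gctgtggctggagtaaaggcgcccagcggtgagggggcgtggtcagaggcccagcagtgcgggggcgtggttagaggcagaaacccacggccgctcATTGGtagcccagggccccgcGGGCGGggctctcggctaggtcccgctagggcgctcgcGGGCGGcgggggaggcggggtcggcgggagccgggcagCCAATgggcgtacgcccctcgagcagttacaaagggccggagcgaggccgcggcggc
Tgfb1, chr7:25686752-25687001, plus strand: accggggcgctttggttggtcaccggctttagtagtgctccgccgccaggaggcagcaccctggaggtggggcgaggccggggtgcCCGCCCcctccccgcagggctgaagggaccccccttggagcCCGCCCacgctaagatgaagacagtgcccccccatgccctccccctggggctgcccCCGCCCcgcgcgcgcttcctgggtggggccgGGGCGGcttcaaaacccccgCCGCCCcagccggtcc
Tgfbr2, chr9:116175364-116175613, minus strand: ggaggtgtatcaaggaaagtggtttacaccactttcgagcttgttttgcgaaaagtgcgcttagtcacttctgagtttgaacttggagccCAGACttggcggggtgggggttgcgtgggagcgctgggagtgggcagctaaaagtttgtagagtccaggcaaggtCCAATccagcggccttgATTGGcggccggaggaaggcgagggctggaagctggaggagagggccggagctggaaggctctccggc
The Tgfb1 window held 5 GC boxes and 0 SMAD boxes, the Tgfbr1 window 2 GC boxes and 2 CCAAT boxes, and the Tgfbr2 window 1 SMAD box and 2 CCAAT boxes. Of all 32851 windows of this length, 42.2% held a SMAD box, 32.7% a GC box and 33.8% a CCAAT box, so each match is common. The heat shock element cores GAANNTTC (6.69% of windows) and TTCNNGAA (7.17%) had 0 matches in these 3 windows. The window before a second annotated start of Tgfbr1 held 1 match to TTCNNGAA and 1 SMAD box. The matches shown do not overlap one another, and a match describes these letters alone. Of the 9 genes 6 were found in the table, with Tgfb2, Eng and Ltbp1 beside the 3 shown. Tgfb3, Tgfbr3 and Acvrl1 were not matched.

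Libraries held 35.1 M to 70.4 M counts (M, mega), with 1.67% to 4.3% mitochondrial. Levels of 1 gene across groups are given as CPM, counts scaled by the library total and edgeR's TMM factor, and levels of different genes are compared as deposited TPM, which is scaled by transcript length. With siHsp90aa1, the Hsp90aa1 level was 12.4% of its control for treated NF and 10.0% for CAF, and with siHsp90ab1 the Hsp90ab1 level was 13.3% and 9.96%. Libraries with siHsp90ab1 also held less Hsp90aa1, 48.1% of the control mean for NF and 47.6% for CAF, which missed the threshold (adjusted p = 0.0722 and 0.123). Of 8 fibroblast markers 7 had a mean of at least 1 TPM in each CAF group and 6 in each NF group. Thy1 was at 211 to 282 TPM in CAF against 0 to 0.611 TPM in NF. Dcn went the other way, at 11.1 to 42.0 TPM in CAF against 115.8 to 434.3 TPM in NF. Lum was at most 1.27 TPM in any library. The 7 epithelial markers summed to 7.19 to 34.7 TPM in CAF, mainly Krt19 (6.06 to 34.5 TPM), and to 0.538 to 1.72 TPM in NF, and their part in differences between the lines was not tested.

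Differences were tested over 15230 genes with edgeR's quasi-likelihood test, an adjusted p (Benjamini-Hochberg) under 0.05 counted as called, and a log2 fold change is given with its standard error. With siHsp90aa1 in NF with TGFb1, 6 of the 9 genes were called, 4 higher and 2 lower, beside 28.3% of all tested genes. In CAF siHsp90aa1 called 4 (3 higher and 1 lower, beside 25.4%). With siHsp90ab1 edgeR called 0 members in NF with TGFb1 (beside 2.69% of all genes, 1.06% higher and 1.62% lower), with 3 at an unadjusted p under 0.05 and 0 by DESeq2, and 1 in CAF (lower, beside 0.900%). TGFb1 against vehicle in NF called 5 (3 higher and 2 lower, beside 29.0%), and CAF against NF called 7 (6 higher and 1 lower, beside 61.6%). The last 2 counts include Acvrl1 and are 4 of 8 and 6 of 8 without it. Acvrl1 did not pass the filter with only the TGFb1 and vehicle controls of NF fitted. It entered the test through groups where it was higher, the CAF groups and NF with siHsp90ab1 and TGFb1 among them. With the replicate number as a block, the share of all genes called was also larger: TGFb1 in NF then called 8 members (beside 36.4%), siHsp90aa1 in CAF 6 (beside 34.1%), siHsp90ab1 in CAF 2 (beside 2.36%) and siHsp90ab1 in NF 1 (beside 5.92%). The TGFb1 comparison shares its vehicle controls with CAF against NF, its TGFb1 controls serve both NF knockdowns, and both CAF knockdowns share 1 set of controls, so these counts are not independent of each other. Bulk RNA does not tell fewer expressing cells from less RNA per cell.

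**Figure D1:**
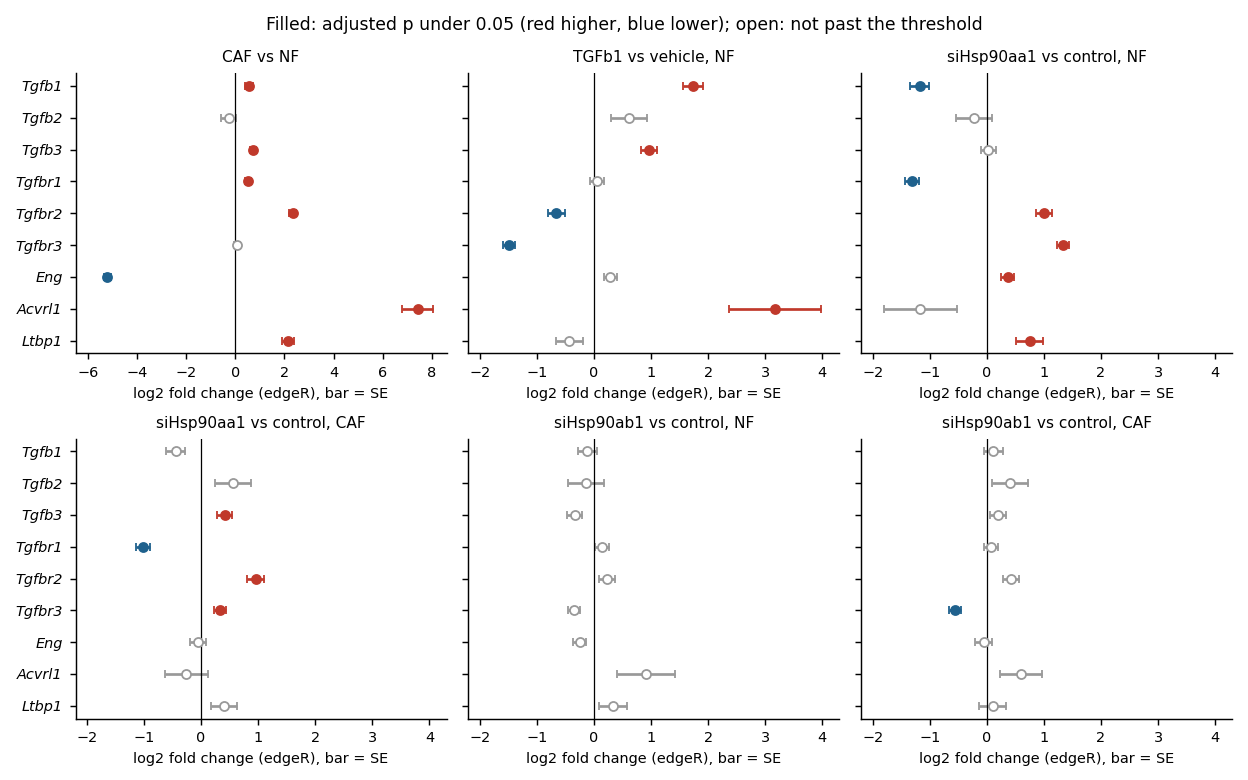
Log2 fold change with its standard error (x axis) of the 9 genes (y axis) in the 6 main comparisons, filled where the adjusted p was under 0.05. Tgfbr1 lies below 0 and Tgfbr2 above 0 with siHsp90aa1 in both lines, and the scale of the CAF against NF panel is wider than that of the others.

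Tgfb1 encodes the ligand that was also added to the medium. It had 70.6, 78.1 and 114.9 CPM in NF with siHsp90aa1 and TGFb1, 171.6, 173.0 and 204.5 CPM in NF with siHsp90ab1 and TGFb1, and 202.2, 179.6 and 213.3 CPM in NF controls with TGFb1. NF controls with vehicle had 58.4, 66.4 and 54.4 CPM. TGFb1-treated controls were thus above vehicle controls with no overlap, and siHsp90aa1 libraries lay in between. TGFb1 raised Tgfb1 in NF (log2 fold change 1.73, 332.1% of vehicle). Knockdown of Hsp90aa1 lowered it in treated NF by a log2 fold change of -1.18 ± 0.17 (SE, adjusted p = 8.15e-05), lower in 3 of 3 pairs with the same replicate number. The third siHsp90aa1 library, with the highest Tgfb1, also had the most Hsp90aa1 left, 120.4 CPM against 40.2 and 65.5 CPM in the other two, and the part of this in the result was not tested. Against vehicle controls, which differ in both siRNA and cytokine, siHsp90aa1 with TGFb1 was higher by 0.56 ± 0.17 (adjusted p = 0.0168), in a comparison where 30.1% of all genes and 4 of the 9 were called. That last call was lost without the third siHsp90aa1 library, where the log2 fold change was 0.30 (adjusted p = 0.172), without the first (0.0504) or the third vehicle library (0.0698), and with only the compared groups fitted (0.0642).

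In CAF, Tgfb1 had 78.4, 59.1 and 57.9 CPM with siHsp90aa1, 103.9, 99.5 and 83.9 CPM with siHsp90ab1, and 103.9, 86.2 and 75.2 CPM in controls. The siHsp90aa1 libraries overlap the controls through their first library and do not overlap the siHsp90ab1 libraries. Against the controls the log2 fold change was -0.44 ± 0.17 (adjusted p = 0.0603). It passed without the third control library (adjusted p = 0.0273), without the first siHsp90aa1 library (0.0227) and with DESeq2 (0.0313), library totals (0.0213), no filter (0.044) and limma on log2(TPM + 1) (0.0349) or log2(TPM + 0.1) (0.036), and missed it with the 8 other alternatives. The difference between the siHsp90aa1 effects in CAF and in NF with TGFb1 was 0.73 ± 0.23 (adjusted p = 0.0774), and it passed without the third NF siHsp90aa1 library (0.0103) and with DESeq2 (0.0427). Under control conditions CAF exceeded NF, with 88.4 ± 14.5 against 59.7 ± 6.09 CPM (SD, n = 3 each; log2 fold change 0.57, adjusted p = 0.00651, 0.0571 without the first CAF control library).

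Neither of the other two ligand genes was lower past the threshold after Hsp90aa1 knockdown. Tgfb3 had 62.3, 60.9 and 64.8 CPM in NF with siHsp90aa1 and TGFb1, against 58.3, 56.2 and 70.1 CPM in NF controls with TGFb1. These groups overlap, with a log2 fold change of 0.03 ± 0.14 (adjusted p = 0.917). TGFb1 itself raised Tgfb3 to 61.5 ± 7.48 CPM, against 31.5 ± 4.2 CPM with vehicle (SD, n = 3 each; log2 fold change 0.97). In CAF, Tgfb3 had 71.5, 72.3 and 64.6 CPM with siHsp90aa1, against 60.1, 56.8 and 39.6 CPM in controls, of which the third is the lowest. This small rise (0.41 ± 0.14, adjusted p = 0.0328) passed with all libraries and in 1 of the 6 fits without 1 of them, and missed the threshold without any siHsp90aa1 library (0.0932, 0.107 and 0.0558 in replicate order) or without the second (0.0528) or the third control library (log2 fold change 0.24, adjusted p = 0.162). It also missed the threshold with library totals (0.0727), without a filter (0.0657), with only the compared groups fitted (0.119) and with limma (0.0728 to 0.132). CAF controls exceeded NF vehicle controls by 0.73 ± 0.14 (adjusted p = 0.000168).

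Tgfb2 was the ligand gene with the widest spread between CAF libraries relative to its mean. It had 30.3, 39.1 and 49.1 CPM with siHsp90aa1, 21.2, 33.9 and 52.2 CPM with siHsp90ab1 and 16.5, 23.4 and 40.8 CPM in controls of CAF, with the third replicate highest in each of the 3 groups. In NF it had 37.3, 38.0 and 51.1 CPM with siHsp90aa1 and TGFb1, 37.1, 42.7 and 54.3 CPM with siHsp90ab1 and TGFb1, 41.6, 44.5 and 61.5 CPM with TGFb1 alone, and 38.6, 26.1 and 32.1 CPM with vehicle. The TGFb1 and vehicle controls do not overlap (0.61 ± 0.31, adjusted p = 0.165), and the gene was called in none of the 6 main comparisons in the fit of all 21 libraries. With TGFb1 in NF it passed with only the compared groups fitted (0.62, adjusted p = 0.0488) and with the replicate number as a block (0.55, adjusted p = 0.0455). The block also called a rise with siHsp90aa1 in CAF (0.60, adjusted p = 0.0323), which likewise passed without the third CAF control library (0.98, adjusted p = 0.0268), a value over 1.5 times that with all libraries (0.55).

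Set against each other per length, Tgfb1 was the most abundant of the 3 ligand transcripts in every group. Its share of their summed TPM was 55.2%, 58.3% and 64.3% in NF with siHsp90aa1 and TGFb1, against 78.4%, 76.7% and 75.0% in NF controls with TGFb1. In CAF it was 57.3%, 48.7% and 48.4% with siHsp90aa1, against 70.1%, 64.7% and 63.6% in controls. In both lines the siHsp90aa1 libraries lie below all 3 of their own controls. The summed ligand TPM was 131.0 ± 24.7 in NF with siHsp90aa1 and TGFb1, 219.9 ± 24.7 with siHsp90ab1 and TGFb1, 236.0 ± 28.9 in NF controls with TGFb1 and 82.8 ± 6.74 with vehicle (SD, n = 3 each). In CAF it was 110.3 ± 7.25 with siHsp90aa1, 138.8 ± 5.995 with siHsp90ab1 and 122.7 ± 13.6 in controls.

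Tgfbr1, the type I receptor kinase gene (GRCm38, chromosome 4, 47353222 to 47414931, plus strand), was lower with siHsp90aa1 in both lines. It had 11.9, 14.6 and 18.8 CPM in NF with siHsp90aa1 and TGFb1, 43.3, 39.9 and 40.8 CPM in NF with siHsp90ab1 and TGFb1, and 36.2, 37.6 and 38.8 CPM in NF controls with TGFb1. NF controls with vehicle had 36.3, 38.5 and 34.3 CPM. The siHsp90aa1 libraries lie far below the other 9 NF libraries. The log2 fold change against TGFb1 controls was -1.32 ± 0.13 (adjusted p = 2.55e-06), and against vehicle controls -1.27 ± 0.13 (adjusted p = 1.02e-06). TGFb1 alone gave 0.05 ± 0.12 (adjusted p = 0.824), with overlapping groups.

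In CAF, Tgfbr1 had 26.5, 28.9 and 22.0 CPM with siHsp90aa1, 52.4, 56.9 and 54.3 CPM with siHsp90ab1, and 48.7, 56.9 and 51.0 CPM in controls. The siHsp90aa1 libraries are again apart from both other groups, and siHsp90ab1 overlaps the controls. The fall was -1.02 ± 0.12 (adjusted p = 2.68e-05), and the difference between the effects in CAF and in NF with TGFb1 was 0.30 ± 0.17 (adjusted p = 0.364). For siHsp90ab1 the log2 fold change was 0.06 ± 0.12 in CAF (adjusted p = 0.976) and 0.14 ± 0.12 in NF with TGFb1 (0.741). Tested directly against siHsp90ab1, siHsp90aa1 had a log2 fold change of -1.46 ± 0.13 in NF (adjusted p = 2.51e-07) and of -1.08 ± 0.12 in CAF (1.74e-05). CAF controls exceeded NF vehicle controls by 0.52 ± 0.12 (adjusted p = 0.00119). In order of mean level, CAF with siHsp90ab1 (54.5 CPM) and CAF controls (52.2 CPM) overlapped, as did NF with TGFb1 (37.5 CPM) and NF with vehicle (36.4 CPM), and all other neighbours in the order were apart.

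Tgfbr2 encodes the type II receptor, which binds ligand first. It had 144.3, 136.7 and 135.8 CPM in NF with siHsp90aa1 and TGFb1, 77.4, 80.2 and 85.4 CPM with siHsp90ab1 and TGFb1, 62.2, 70.7 and 75.0 CPM with TGFb1 alone, and 89.8, 106.5 and 132.0 CPM with vehicle. TGFb1 lowered it (-0.66 ± 0.14), and the siHsp90aa1 libraries stand above all other NF libraries (1.00 ± 0.14 against TGFb1 controls, adjusted p = 8.42e-05). Against vehicle they were at 0.35 ± 0.14 (adjusted p = 0.0762), which passed with the replicate block (0.37, adjusted p = 0.00451) and without the third vehicle library (0.49, adjusted p = 0.0178). In CAF the gene had 989.2, 1003 and 1220 CPM with siHsp90aa1, 625.2, 701.5 and 901.7 CPM with siHsp90ab1, and 490.0, 534.8 and 632.9 CPM in controls. Every CAF library is above every NF library (2.34 ± 0.15 between controls, adjusted p = 2.2e-10). In CAF siHsp90aa1 raised Tgfbr2 by 0.95 ± 0.14 (adjusted p = 0.000136). With siHsp90ab1 it stood at 0.43 ± 0.14 (adjusted p = 0.242), which passed with the replicate block (0.42, adjusted p = 0.02).

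The transcript ratio of type II to type I receptor puts both genes on 1 scale per length. It was 14.0, 9.82 and 8.29 in NF with siHsp90aa1 and TGFb1, 1.95, 2.18 and 2.27 with siHsp90ab1 and TGFb1, 1.85, 2.07 and 2.13 with TGFb1 alone, and 2.36, 3.04 and 4.24 with vehicle. In CAF it was 40.6, 40.5 and 58.7 with siHsp90aa1, 13.6, 13.3 and 18.5 with siHsp90ab1, and 10.99, 10.11 and 13.61 in controls. In both lines the siHsp90aa1 libraries lie above all others of that line. Tgfbr2 was the more abundant transcript of the pair in all 21 libraries.

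**Figure D2:**
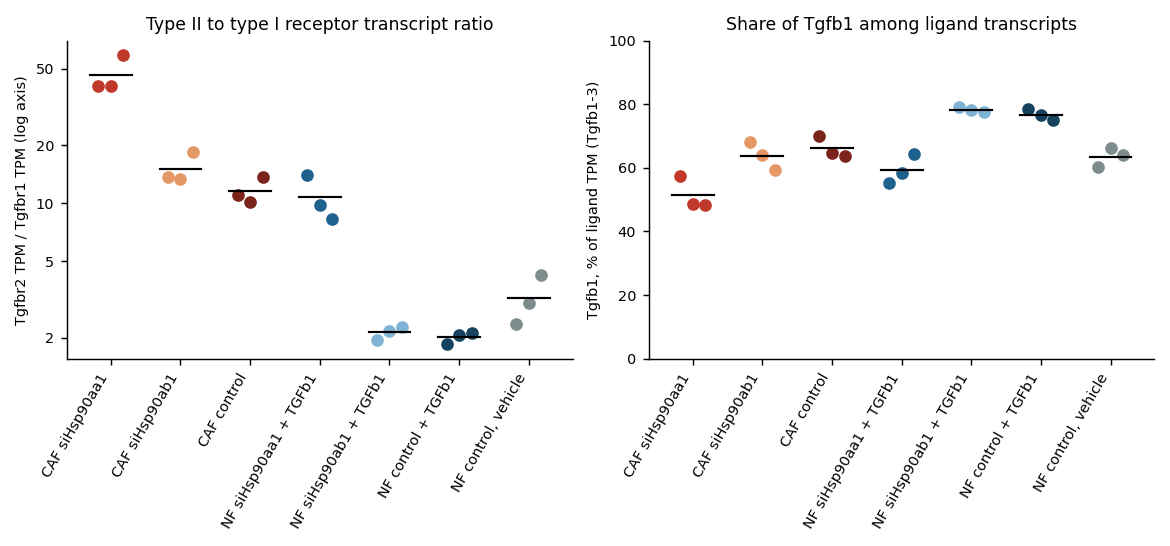
Left, ratio of Tgfbr2 to Tgfbr1 TPM on a log axis; right, share of Tgfb1 in the summed TPM of the 3 ligand genes; points are libraries and lines are means of 3. The mean ratio is 46.6 in CAF with siHsp90aa1 against 11.6 in CAF controls, and 10.7 in NF with siHsp90aa1 and TGFb1 against 2.02 in NF controls with TGFb1, while the Tgfb1 share is lowest in CAF with siHsp90aa1 (51.5%).

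Tgfbr3 encodes betaglycan, a co-receptor without kinase activity that TGFb2 in particular depends on. It had 357.2, 326.9 and 279.7 CPM in NF with siHsp90aa1 and TGFb1, 95.6, 99.9 and 105.4 CPM with siHsp90ab1 and TGFb1, 120.1, 137.8 and 125.2 CPM with TGFb1 alone, and 335.0, 340.7 and 402.1 CPM with vehicle. The siHsp90aa1 libraries overlap those with vehicle, and both groups are apart from the other two. TGFb1 lowered the gene by -1.49 ± 0.11, and siHsp90aa1 raised it above TGFb1 controls by 1.33 ± 0.11 (adjusted p = 6.05e-07). Against vehicle siHsp90aa1 with TGFb1 gave -0.16 ± 0.11 (adjusted p = 0.279). In CAF the gene had 526.4, 495.8 and 405.0 CPM with siHsp90aa1, 283.0, 251.8 and 236.1 CPM with siHsp90ab1, and 382.5, 392.8 and 357.3 CPM in controls. The 3 groups do not overlap, with siHsp90aa1 highest and siHsp90ab1 lowest.

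The rise with siHsp90aa1 in CAF was small (0.33 ± 0.11, adjusted p = 0.0291), and without 1 library it missed the threshold in 5 of 6 fits, namely without any control library (0.0791, 0.0675 and 0.0952 in replicate order) or without the first (0.151) or second siHsp90aa1 library (0.107). It also missed the threshold with library totals (0.11), without a filter (0.0744), with only the compared groups fitted (0.0839) and with limma (0.181 to 0.293). The effect of siHsp90aa1 on Tgfbr3 differed between CAF and NF with TGFb1 by -0.997 ± 0.15 (adjusted p = 0.00123), the only member called in that test, beside 5.46% of all genes (2.44% higher and 3.02% lower), and line and cytokine cannot be told apart in it. For siHsp90ab1 edgeR called 0 members in the same test (beside 0.00657%), with 1 at an unadjusted p under 0.05 and 0 by DESeq2. The fall of Tgfbr3 with siHsp90ab1 in CAF (-0.56 ± 0.11, adjusted p = 0.0163) was the only member call for that knockdown. It missed the threshold without the first or second control library (0.0531 and 0.0977) or the second or the third siHsp90ab1 library (0.0926 and 0.105), with limma (0.0584 to 0.0899) and with only the compared groups fitted (0.102). In NF with TGFb1 siHsp90ab1 gave -0.35 ± 0.11 (adjusted p = 0.106), which passed with only the compared groups fitted (0.0377). Directly against siHsp90ab1, Tgfbr3 with siHsp90aa1 was higher by 1.68 ± 0.11 in NF (adjusted p = 2.87e-08) and by 0.89 ± 0.11 in CAF (2.76e-05).

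Eng encodes endoglin, a co-receptor best known from endothelium and also present on some fibroblasts. It had 162.6, 143.6 and 145.1 CPM in NF with siHsp90aa1 and TGFb1, 97.5, 97.2 and 99.9 CPM with siHsp90ab1 and TGFb1, 120.0, 115.2 and 115.1 CPM with TGFb1 alone, and 92.5, 97.6 and 97.2 CPM with vehicle. All 9 CAF libraries were between 1.85 and 3.27 CPM. CAF controls were thus at 2.65% of NF vehicle controls (log2 fold change -5.21 ± 0.14, adjusted p = 5.3e-15). Of the 7 endothelial markers Cldn5 and Tie1 were at 0 in all libraries and Emcn in all NF libraries, and the list summed to 0.161 to 1.12 TPM in NF, against group means of Eng of 55.6 to 88.2 TPM there. In NF siHsp90aa1 raised Eng slightly above TGFb1 controls (0.37 ± 0.12, adjusted p = 0.0244). That call was lost without any TGFb1 control library (0.0563, 0.0695 and 0.0685 in replicate order) or the first siHsp90aa1 library (0.107), and with limma on log2(TPM + 0.1) (0.0806). TGFb1 against vehicle gave 0.29 ± 0.12 (adjusted p = 0.0728), which passed with the replicate block (adjusted p = 0.046), with DESeq2 (0.00887), with limma on log2(TPM + 1) (0.0174, and 0.0241 unfiltered) and with only the compared groups fitted (0.0259), and not with the other alternatives. Exons of Eng overlap Fpgs on the opposite strand (mean 47.9 TPM). The library kit keeps strand, but the strand setting of the counting is not given in the sources used here, so reads of the 2 genes may be shared.

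Acvrl1, the alternative type I receptor gene, was near 0 in NF. It had 0.0604, 0.0371 and 0.272 CPM in NF with siHsp90aa1 and TGFb1, 0.330, 0.561 and 0.537 CPM with siHsp90ab1 and TGFb1, 0.200, 0.182 and 0.392 CPM with TGFb1 alone, and 0, 0.0449 and 0.0381 CPM with vehicle. In CAF it had 5.23, 3.68 and 3.24 CPM with siHsp90aa1, 10.5, 6.89 and 4.74 CPM with siHsp90ab1, and 6.41, 4.32 and 3.84 CPM in controls. CAF controls held 787 counts in all against 4 in NF vehicle controls, a ratio per total count of 185.5 (95% exact interval 72.2 to 682.4, counting error only). NF with TGFb1 held 34 counts against the same 4 with vehicle, a ratio of 9.31 (3.32 to 36.1). Both differences were called by edgeR (adjusted p = 1.17e-08 for CAF against NF). Their fitted fold changes depend on the prior count with so few counts and are not given. With limma on log2(TPM + 1), the difference for TGFb1 missed the threshold (adjusted p = 0.493). In CAF neither knockdown changed Acvrl1 past the threshold. Of the endothelial markers, Kdr stood at 0.929 to 4.43 TPM in CAF against 0.0120 to 0.242 TPM in NF. Tek went the other way, with at most 0.0957 TPM in CAF and up to 0.925 TPM in NF, and Pecam1 and Cdh5 overlapped between the lines. The list of 7 summed to 1.22 to 4.83 TPM in CAF and 0.161 to 1.12 TPM in NF, with Cldn5 and Tie1 at 0 in both lines, and its part in the level of Acvrl1 was not tested.

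In NF with TGFb1, siHsp90aa1 libraries held 15 Acvrl1 counts against 34 in their controls, a ratio of 0.440 (0.223 to 0.831), which missed the threshold (adjusted p = 0.186) and passed without the third siHsp90aa1 library (0.0251). Directly against siHsp90ab1 it was lower in NF with siHsp90aa1 (15 against 68 counts, adjusted p = 0.0106), a call lost without the first (0.0582) or second siHsp90aa1 library (0.0651) and with limma on log2(TPM + 1) (0.216, and 0.322 unfiltered). Without the third siHsp90aa1 library the log2 fold change was -3.23 (adjusted p = 0.00138), against -2.07 with all libraries. With limma on log2(TPM + 1) it was -0.34, so the size of this difference is not settled on so few counts. In CAF the same comparison gave -0.86 ± 0.38 (adjusted p = 0.101), which passed without the third siHsp90ab1 library (-1.11, adjusted p = 0.0444) and with limma on log2(TPM + 1) (0.0167, and 0.0319 unfiltered).

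Ltbp1 encodes the protein that anchors latent TGFb in the matrix. It had 156.3, 138.9 and 89.0 CPM in NF with siHsp90aa1 and TGFb1, 111.5, 102.4 and 73.4 CPM with siHsp90ab1 and TGFb1, 94.4, 77.0 and 57.0 CPM with TGFb1 alone, and 124.9, 111.8 and 72.3 CPM with vehicle. In CAF it had 642.9, 622.9 and 534.3 CPM with siHsp90aa1, 541.5, 508.4 and 413.1 CPM with siHsp90ab1, and 537.8, 474.3 and 350.7 CPM in controls. The third replicate is lowest in all 7 groups, and every CAF library lies above every NF library (2.14 ± 0.25 between controls, adjusted p = 5.81e-07). In NF with TGFb1 siHsp90aa1 gave a rise of 0.75 ± 0.24 (adjusted p = 0.0251), lost without the second or the third TGFb1 control library (0.0594 and 0.114) or the first or second siHsp90aa1 library (0.124 and 0.0785), and with unfiltered limma on log2(TPM + 1) (0.0761).

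With the replicate number as a block the standard error of Ltbp1 was 0.09 in these comparisons, and more of its differences passed. Under the block Ltbp1 rose with siHsp90aa1 in NF (0.74, adjusted p = 1.22e-05) and in CAF (0.43, adjusted p = 0.00119), rose with siHsp90ab1 in NF (0.34, adjusted p = 0.0315) and fell with TGFb1 (-0.43, adjusted p = 0.00102). Against NF vehicle controls, NF with siHsp90aa1 and TGFb1 was higher by 0.31 (adjusted p = 0.00932). Against siHsp90ab1, siHsp90aa1 was higher by 0.41 in NF (adjusted p = 0.00138) and by 0.31 in CAF (adjusted p = 0.011). Without the block the first of these 7 differences passed the threshold and the other 6 did not.

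**Figure D3:**
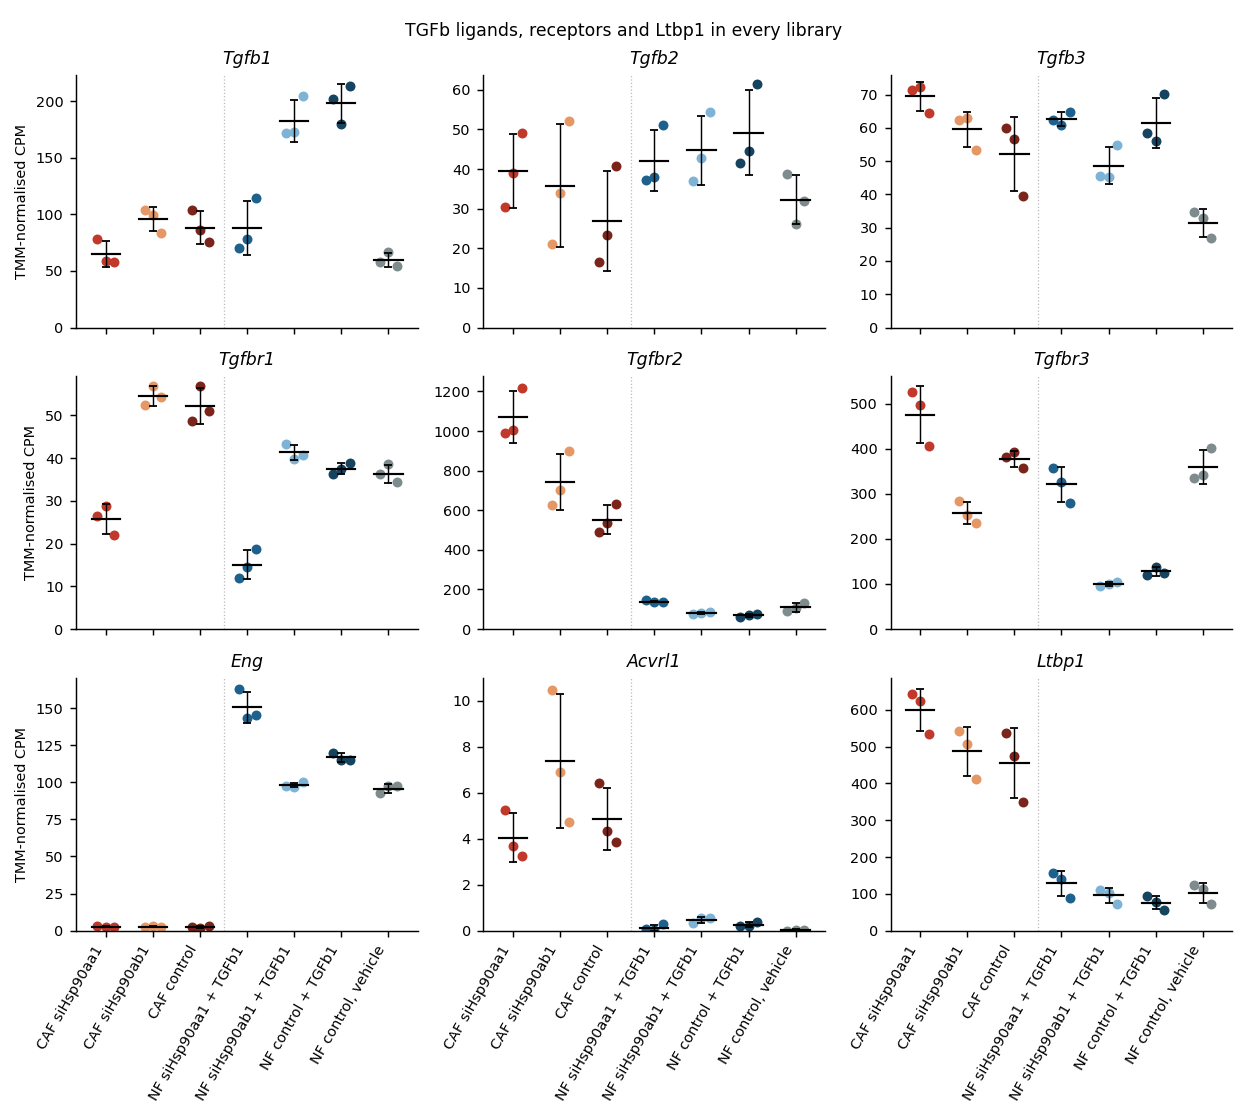
TMM-normalised CPM of each gene in each library (points), with the mean (line) and SD (bars) of the 3 libraries of a group, on axes that start at 0. Tgfbr1 is lowest in the siHsp90aa1 group of each line, Tgfb1 is highest in NF with TGFb1 and control siRNA, and Eng and Acvrl1 are each near 0 in 1 of the 2 lines.

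The 2 knockdowns were also compared directly. In NF with TGFb1, 7 of 9 members differed between siHsp90aa1 and siHsp90ab1, and 6 of 8 without Acvrl1 (beside 34.1% of all genes). Beyond those given above Tgfb1 was lower (-1.06 ± 0.17, adjusted p = 0.000104), and Tgfbr2 (0.78 ± 0.14), Eng (0.62 ± 0.12) and Tgfb3 (0.37 ± 0.14, adjusted p = 0.0455) were higher. The difference of Tgfb3 missed the threshold without any siHsp90aa1 library (0.0913, 0.0818 and 0.116 in replicate order) or the first or second siHsp90ab1 library (0.16 and 0.157), with DESeq2 size factors (0.0505), without a filter (0.0647) and with limma (0.12 to 0.202). In CAF 4 of 9 differed (beside 26.3%). There Tgfb1 was lower with siHsp90aa1 (-0.56 ± 0.17, adjusted p = 0.02), a call lost without the second or the third siHsp90aa1 library (0.0762 and 0.0903) or the first or second siHsp90ab1 library (0.0804 and 0.0646). Tgfbr2 was higher (0.53 ± 0.14, adjusted p = 0.0108), lost without the third siHsp90aa1 library (0.0715) or the first or second siHsp90ab1 library (0.0737 and 0.0539), and with limma (0.0517 to 0.101). Since Hsp90aa1 also stood near 48% of its control with siHsp90ab1, these comparisons set a deep against a partial loss of Hsp90aa1 as well as 1 target against the other.

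Compared per length, the order of the 9 transcripts differed between the lines. In CAF controls Tgfbr2 (222.4 ± 29.0 TPM) led, followed by Ltbp1 (165.6 ± 36.4), Tgfbr3 (125.4 ± 6.72) and Tgfb1 (81.4 ± 13.1), with Acvrl1 (3.72 ± 1.01) and Eng (1.51 ± 0.39) last (SD, n = 3). In NF vehicle controls Tgfbr3 (114.0 ± 22.5 TPM) led, followed by Eng (55.6 ± 4.65), Tgfb1 (52.7 ± 6.69) and Tgfbr2 (42.1 ± 11.1). Tgfbr1 was at 19.3 ± 2.00 TPM in CAF controls and 13.2 ± 0.50 TPM in NF vehicle controls, below the type II receptor and betaglycan in both.

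Pathway genes around the receptors were counted in the same fits. Beside their counts, 14.8% of all tested genes were called higher and 13.5% lower with siHsp90aa1 in NF with TGFb1, and 12.5% and 12.9% in CAF. With TGFb1 these shares were 14.6% and 14.4%, and in CAF against NF 31.6% and 30.0%. With the replicate block 37.3% of all genes were called with siHsp90aa1 in NF with TGFb1 and 34.1% in CAF. Of 18 listed genes for latency and activation of TGFb, 16 were tested. With siHsp90aa1 in NF with TGFb1, 1 rose and 3 fell (median log2 fold change -0.08, against 0.01 for all tested genes), and in CAF 3 rose and 0 fell (median 0.17, against 0.03). With TGFb1 in NF 14 rose and 0 fell (median 1.18, against -0.03), and in CAF against NF 13 were higher and 1 lower (median 1.04, against -0.005). Itgb3, the beta subunit of an integrin that can activate latent TGFb, rose with TGFb1 (3.33 ± 0.21), fell with siHsp90aa1 in treated NF (-1.36 ± 0.20, adjusted p = 9.21e-05) and was higher in CAF than in NF (2.93 ± 0.21). Itgb8, which pairs with the alpha v subunit in another activating integrin, was lower in CAF, with 11 counts against 646 in NF vehicle controls. Its log2 fold change was -5.78 ± 0.29 by edgeR, -2.98 by limma on log2(TPM + 0.1) and -0.91 by limma on log2(TPM + 1), and was called in each. The matrix metalloproteinase gene Mmp2 was higher in CAF (4.07 ± 0.23). Ltbp2, a matrix protein of the LTBP family, rose with TGFb1 (1.48 ± 0.09), as did the propeptidase gene Bmp1 (1.85 ± 0.17). In CAF siHsp90aa1 raised Ltbp2 (0.49 ± 0.09) and the membrane protease gene Mmp14 (0.54 ± 0.10). Fbn1, for fibrillin in the microfibrils that hold LTBPs, also rose (0.91 ± 0.24, adjusted p = 0.00947; lost without the first CAF control, 0.0603, or the third siHsp90aa1 library, 0.0673). In NF Furin, which cleaves the propeptide, and Itgb1 fell with siHsp90aa1 (-0.37 and -0.33). Both calls were lost without the third TGFb1 control or the first or the second siHsp90aa1 library, and that of Itgb1 also without the first control (adjusted p up to 0.0838 and 0.113). Without 1 library the falls in NF numbered 1 to 3, and with the replicate block 6 genes rose in CAF.

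Of 9 tested co-receptor and ligand-binding genes (10 listed), 3 rose and 0 fell with siHsp90aa1 in NF with TGFb1 (median 0.17), and 2 rose and 0 fell in CAF (median 0.37). With TGFb1 3 rose and 1 fell (median 0.34), and in CAF against NF 5 were higher and 3 lower (median 1.38). Dcn, for the TGFb-binding proteoglycan decorin, fell with TGFb1 (-1.62 ± 0.34) and rose with siHsp90aa1 in treated NF (1.05 ± 0.33, adjusted p = 0.0242), a call lost without the second or the third TGFb1 control or the first siHsp90aa1 library (0.0815 to 0.114) and with unfiltered limma (0.0641). The co-receptor gene Nrp2 (0.76 ± 0.20, 0.0505 without the first siHsp90aa1 library) and the ligand-trap gene Vasn (0.34 ± 0.11, lost without any TGFb1 control or the first siHsp90aa1 library, 0.0618 to 0.154, and with limma, 0.0878 to 0.153) also rose, and without 1 library the rises numbered 0 to 3. Bgn, for the related biglycan, rose with TGFb1 (1.00 ± 0.09) and with siHsp90aa1 in CAF (0.37 ± 0.09), and was higher in CAF than in NF (1.78 ± 0.09). Cd109, a co-receptor known to favour internalisation of the receptors, was higher in CAF than in NF (3.35 ± 0.16), and Nrp2 lower (-3.21 ± 0.21). Cd109 also rose with TGFb1 (0.80 ± 0.15) and with siHsp90aa1 in CAF (0.53 ± 0.14, lost without the first siHsp90aa1 library or the second or the third control, 0.0506 to 0.0686). There the 2 rises were 1 to 3 without 1 library and 4 with the replicate block.

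Of 7 tested activin and BMP receptor genes (9 listed), 2 rose and 4 fell with siHsp90aa1 in NF with TGFb1 (median -0.54), and 1 rose and 2 fell in CAF (median 0.06). With TGFb1 3 rose and 0 fell (median 0.20), and in CAF against NF 4 were higher and 0 lower (median 0.45). The type I receptor gene Bmpr1a fell with siHsp90aa1, at -0.54 ± 0.10 in NF (adjusted p = 0.000629) and -0.54 ± 0.10 in CAF (0.00076). Acvr1, another type I receptor gene, fell too, at -0.65 ± 0.11 in NF (adjusted p = 0.000401) and -0.36 ± 0.11 in CAF (0.0237, lost without the first control or the second or the third siHsp90aa1 library, 0.0555 to 0.0714). With TGFb1 it rose (0.94 ± 0.11), as did the BMP receptor gene Bmpr2 (0.74 ± 0.11). Bmpr1b was also called higher, on 41 counts in NF with TGFb1 against 3 with vehicle, a ratio of 14.97 (95% exact interval 4.78 to 75.6, counting error only), and missed the threshold with unfiltered limma on log2(TPM + 1) (adjusted p = 0.261). Bmpr1b did not pass the filter with only these groups fitted, so it entered this test through other groups. It is counted among the 3 rises with TGFb1, the 4 genes higher in CAF and the 4 falls with siHsp90aa1 in NF. Acvr2a, an activin type II receptor gene, rose with siHsp90aa1 by 0.58 ± 0.15 in NF (adjusted p = 0.00853, 0.0514 without the first TGFb1 control library) and by 0.62 ± 0.15 in CAF (0.00556). With siHsp90ab1 Acvr2a stood at 0.54 ± 0.15 in NF (adjusted p = 0.0685) and 0.48 ± 0.15 in CAF (0.199). It did not differ past the threshold between the knockdowns in either line. With siHsp90aa1 the 2 rises in NF became 0 or 1 when any 1 library was left out, and the 4 falls 2 to 4.

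The list of receptor-binding and turnover proteins held 18 genes, all tested, among them the HSP90 co-chaperone gene Cdc37 and Trap1. The Trap1 product is the mitochondrial HSP90, while the TGFb receptor-associated protein once given that name is encoded by Tgfbrap1, also listed. Trap1 is counted among the rises with siHsp90aa1 in NF, the falls with TGFb1 and the genes lower in CAF than in NF. With siHsp90aa1 in NF with TGFb1, 2 rose and 7 fell (median -0.15; 3 to 6 falls without 1 library), and in CAF 1 rose and 2 fell (median 0.05; 3 rose and 2 fell with the replicate block). With TGFb1 5 rose and 2 fell (median 0.02), and in CAF against NF 8 were higher and 5 lower (median 0.29). Cav1, for caveolin, known to take part in receptor internalisation, fell with TGFb1 (-2.04 ± 0.22) and rose with siHsp90aa1 in treated NF (1.45 ± 0.22, adjusted p = 0.000112). Zfyve9, for the SMAD anchor SARA, fell with siHsp90aa1 in treated NF (-0.44 ± 0.08, adjusted p = 0.000436), and Trap1 rose (0.56 ± 0.10). The feedback inhibitor genes Pmepa1 (4.47 ± 0.35) and Smad7 (1.94 ± 0.22) rose with TGFb1. Both were among the 7 falls with siHsp90aa1 in treated NF, and both were called lower there than with siHsp90ab1. Fkbp1a, for the FKBP12 protein that binds the type I receptor, fell with siHsp90ab1 in NF (-0.30 ± 0.06, adjusted p = 0.013) and CAF (-0.32 ± 0.06, 0.0165), with both calls lost without the first or the second control of that line or the second siHsp90ab1 library, and also without the first siHsp90ab1 library in NF and the third in CAF (0.0529 to 0.0837 in NF and 0.0745 to 0.117 in CAF). Fkbp1a was also among the 7 falls with siHsp90aa1 in treated NF, where it did not differ past the threshold between the knockdowns. In CAF it was higher with siHsp90aa1 than with siHsp90ab1. With siHsp90aa1 in CAF the phosphatase gene Ppp1ca fell (-0.34 ± 0.06), Tgfbrap1 rose (0.37 ± 0.07) and Strap fell (-0.20 ± 0.06, lost without the first or the second control or the third siHsp90aa1 library, 0.061 to 0.0821). In CAF against NF the ubiquitin ligase genes Wwp1 (1.09 ± 0.11) and Smurf2 (0.53 ± 0.07) were higher and Smurf1 lower (-0.89 ± 0.10).

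The SMAD transducer list held 9 genes, among them Smad2, Smad3 and Smad4 but also repressors and other regulators of SMAD signalling. With siHsp90aa1 in NF with TGFb1, 6 fell and 0 rose (median -0.24). Those lower were Ski, Skil and Tgif1, which encode repressors, and Smad2, Smad4 and Trim33. The falls were modest, with Smad2 at -0.43 ± 0.07 (adjusted p = 0.000194), Trim33 at -0.43 ± 0.10 and the common mediator Smad4 at -0.24 ± 0.06. In CAF 0 fell and 2 rose, the repressor gene Ski (0.47 ± 0.07) and the SMAD phosphatase gene Ppm1a (0.24 ± 0.07, lost without the second or the third control or the third siHsp90aa1 library, 0.0504 to 0.109, and with 6 of the other alternatives, 0.0683 to 0.107), with a median of -0.002. Without 1 library 1 to 3 rose and 0 to 2 fell there. Smad2 stood at -0.17 ± 0.07 in CAF (adjusted p = 0.0801) and passed with DESeq2 (0.0306), with library totals (0.00981) and without the third control (0.0396). In the test of the difference between the siHsp90aa1 effects in CAF and in NF with TGFb1, 1 of the 9 was called (Ski). With library totals in place of TMM, 1 rose and 1 fell in CAF, and with the replicate block 3 rose and 1 fell. With TGFb1 4 rose and 1 fell (median 0.20), and in CAF against NF 5 were higher and 2 lower (median 0.34). The repressor genes Skil (2.39 ± 0.19) and Ski (1.11 ± 0.07), known feedback targets, rose with TGFb1. Tgif1, another repressor gene, rose less (0.46 ± 0.15, lost without the first or the third TGFb1 control or the second or the third vehicle library, 0.0682 to 0.13), and without 1 library the rises numbered 2 to 5. In CAF Ppm1a (1.2 ± 0.07) and Ski (1.03 ± 0.07) were higher than in NF, and Trim33 lower (-0.49 ± 0.10).

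Of 14 SMAD target genes, 12 rose and 0 fell with TGFb1 (median 1.55), with Tagln at 3.16 ± 0.20, Snai1 at 1.54 ± 0.09 and Pdgfb at 6.89 ± 0.38 (4.48 by limma on log2(TPM + 1)). With siHsp90aa1 in NF with TGFb1, 1 rose (Cdkn2b, a cyclin-dependent kinase inhibitor gene, 0.75 ± 0.12) and 3 fell (Pdgfb at -1.66 ± 0.27, the transcription factor gene Snai1 at -0.49 ± 0.09, and Tagln), with a median of -0.35. The replicate block gave 2 rises and 7 falls there, and leaving out 1 library 3 to 5 falls. In CAF 4 rose with siHsp90aa1 and 0 fell (median 0.39), Cdkn2b (0.67 ± 0.12), Fn1 (0.52 ± 0.12), Col1a1 (0.52 ± 0.16, lost without the first or the second control or the first or the third siHsp90aa1 library, 0.0602 to 0.0904, with library totals, 0.0587, and with limma, 0.0763 to 0.18) and Acta2. Without 1 library the rises numbered 2 to 4. With library totals in place of TMM the 4 became 2. In CAF against NF 8 were higher and 4 lower (median 0.44), led by the contractile genes Tagln (5.84 ± 0.22) and Acta2 (4.36 ± 0.23) and the collagen gene Col1a1 (3.00 ± 0.17). The counts of every list stand beside the shares of all tested genes given before the first list.

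With siHsp90ab1, edgeR called 2 of the 73 tested list genes in NF with TGFb1 (2.74%, beside 2.69% of all genes) and 1 in CAF (1.37%, beside 0.900%), shares near those of all genes. In each line 11 had an unadjusted p under 0.05, and DESeq2 called 6 in NF and 2 in CAF. The calls by edgeR were all in the turnover list, Zfyve9 higher and Fkbp1a lower in NF and Fkbp1a lower in CAF. With the replicate block the turnover list had 1 rise and 3 falls in NF and 2 falls in CAF, beside 5.92% and 2.36% of all genes. Each other list then had at most 1 call in either line. Zfyve9 (0.30 ± 0.08, adjusted p = 0.0382) missed the threshold without any control or without the first or the second siHsp90ab1 library (0.0916 to 0.172), without a filter (0.105), with only the compared groups fitted (0.0682) and with limma on log2(TPM + 0.1) (0.0545).

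**Figure D4:**
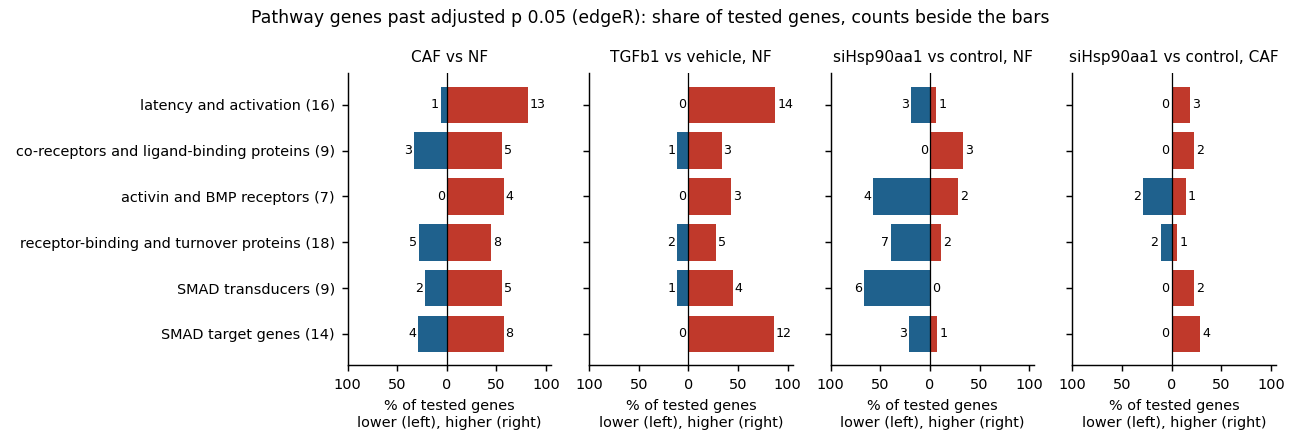
Share of tested genes of each list past an adjusted p of 0.05 (edgeR), higher to the right and lower to the left, with counts beside the bars and the number tested in brackets. The TGFb1 panel is nearly all to the right. With siHsp90aa1 the SMAD transducer list, which includes repressors and other regulators, has 6 of 9 lower in NF and 0 of 9 lower in CAF (0 to 2 without 1 library). The direct test of the difference between these effects called 1 of the 9 (Ski).

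Among 10366 genes with a mean of at least 5 CPM, those whose pattern over the 7 group means was most like Tgfbr1 were Per3, Polr2m, Kif5b, Shroom4 and Scoc, with a root mean square log2 difference of 0.15 to 0.20 after centring. Polr2m had 130.4 CPM in CAF with siHsp90aa1 against 221.0 CPM in CAF controls, and 86.3 CPM in NF with siHsp90aa1 and TGFb1 against 168.0 CPM in NF controls with TGFb1. Most like Tgfb1 were Klhl26, Jup, Has2, Rab15 and Gm38399, at 0.13 to 0.17. Has2, for a hyaluronan synthase, had 53.9 CPM in NF with siHsp90aa1 and TGFb1, 122.7 CPM in NF controls with TGFb1 and 30.0 CPM with vehicle.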

How the data were processed

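Per the labels' protocols, RNA was sequenced after strand-specific TruSeq mRNA preparation. The authors deposited expected (estimated) counts per gene and TPM. STAR, Salmon and GRCm38 are named in the submitters' processing notes, with no version, role or strand setting. Expected counts (10.9% not whole) were rounded, moving a value by at most 0.5. The deposited TPM values were used for levels between genes and for alternatives.

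Tests used edgeR 4.0.16 in R 4.3.3 (quasi-likelihood F test, TMM, filterByExpr by group with a minimum count of 10 and total of 15) on all 21 libraries with 1 coefficient per group, and Benjamini-Hochberg adjustment within each comparison over 15230 genes. The standard error is the log2 fold change divided by the square root of F. The fit was tested on simulated data. Alternatives used DESeq2 1.42.0, limma 3.58.1 on log2(TPM + 1) and log2(TPM + 0.1), other scalings and filters, the compared groups alone, each library left out, and a replicate block. Those for pathway lists were added after seeing the data.

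Replicate numbers are labelled as batches, so they pair libraries. Over 10374 genes, deviations from group means correlated at r over 0.1 in 53 of 63 same-numbered pairs (mean 0.31, range -0.0534 to 0.838). Differently numbered pairs averaged -0.151, but centring on the group means largely fixes this value once the same-numbered mean is given. It is therefore no separate baseline.

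The 9 genes, lists and comparisons were chosen with earlier results of these data known. Named are the 9 genes, the called genes among the 3 with the smallest p of each list per main comparison, genes that make up a count of at most 6, and the 5 genes most like Tgfbr1 and Tgfb1 over group means of log2 CPM (prior count 2). Few counts limit the precision of Acvrl1, Bmpr1b and Itgb8, and intervals cover counting error only. Positions are from GENCODE on GRCm38 and sequences from RefSeq.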

Additional observations from a re-analysis of the deposited data

Results flagged for a closer look

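The effect of Hsp90aa1 knockdown on Tgfbr3 differed between the lines by the test of the difference itself. The log2 fold change in CAF minus that in NF with TGFb1 was -0.997 ± 0.15 (SE, adjusted p = 0.00123 by edgeR, and 0.000471 with the replicate block). Tgfbr3 averaged 475.7 CPM in CAF with siHsp90aa1 against 377.5 CPM in CAF controls, and 321.3 CPM in NF with siHsp90aa1 and TGFb1 against 127.7 CPM in NF controls with TGFb1. The gene was higher with siHsp90aa1 in both lines, though the rise in CAF passed the threshold in only 4 of 15 alternative fits. Line and cytokine cannot be told apart.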

How the results depend on the processing

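No fold change of the 9 genes reversed past the threshold. Tgfbr1 (-1.50 to -1.17) and Tgfb1 (-1.42 to -1.04) after siHsp90aa1 in NF stayed called without any 1 library and under the other alternatives (-1.39 to -1.25 and -1.23 to -1.16).

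Members called with siHsp90aa1 in CAF were 2 by limma on unfiltered log2(TPM + 1) and with only the compared groups. With siHsp90ab1 in CAF they were 0 by the 3 limma fits and with only the compared groups, and 2 with the replicate block. With siHsp90ab1 in NF they were 1 with only the compared groups and 1 with the block. The difference of the siHsp90aa1 effects gave 2 by DESeq2, and TGFb1 in NF gave 8 with the block. Without 1 library the counts ranged from 2 to 4 for siHsp90aa1 in CAF, 2 to 5 for siHsp90aa1 against siHsp90ab1 in CAF, 0 to 1 for siHsp90ab1 in CAF and 1 to 2 for the difference of the siHsp90aa1 effects. The block changed no member call beyond those given with the genes. The causes were not tested.

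Over all genes, the count for siHsp90ab1 in CAF of 137 became 318 (DESeq2), 360 (block), 5 (compared groups) and 58 or 77 (limma with a filter), and for siHsp90ab1 in NF 409 became 705 (DESeq2), 902 (block) and 254 (limma, log2(TPM + 0.1)). The difference of the siHsp90aa1 effects gave 1332 (DESeq2) and 1871 (block) against 832, and that of the siHsp90ab1 effects 18 and 3 against 1 (limma 0, 11 and 18). Without 1 library these ranges were 44 to 102, 157 to 329 and 453 to 951 for the first 3. For siHsp90aa1 in CAF 3867 became 2460 without the second control and 2524 without the third siHsp90aa1 library. For siHsp90aa1 against siHsp90ab1 in CAF 4006 became 2506 without the third siHsp90aa1 library and 2492 or 2478 without the first or the second siHsp90ab1 library. With library totals only, the share of calls that were higher was 30.7% against 49.1% for siHsp90aa1 in CAF and 39.8% against 50.4% for TGFb1, and the median of all genes in CAF against NF was -0.113 against -0.005.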
